A study of Homo sapiens with 12 samples.

Results

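The transcripts of the proteasome, the protease that degrades ubiquitin-tagged proteins in the cytoplasm and the nucleus, were followed in Caco-2 cells after knockdown of ZNF658. Members were the array probes whose annotated gene symbol starts with PSMA, PSMB, PSMC, PSMD, PSME, PSMF or PSMG and a digit. To leave out pseudogenes and antisense genes, symbols ending in P and a number and antisense symbols were dropped. In this gene table that removed PSME3IP1, by its ending, and PSMG3-AS1. That rule found 58 probes for 40 genes, of which 56 probes for 39 genes were measured well enough to be tested, out of 14804 tested probes in all, 11868 of which carry a gene name and stand for 9203 genes. A probe was tested if its detection P value, the chance of such a brightness in a negative control, was under 0.01 on each of the 3 arrays in 1 or more of the groups. All 56 were detected on all 12 arrays. The probes left untested were the second probe of PSMD12, detected on 1 array, and the only probe of PSMD9, a chaperone of the base, detected on 2. PSMC3IP, with 3 probes, fits the symbol rule, but its product acts in meiotic recombination and is no proteasome subunit. Its single values are described apart, and 53 tested probes for 38 genes remain for the proteasome itself. The counts, medians and figures for 56 probes below still include the 3 of PSMC3IP. PSMA7, PSMA8, PSMB8, PSMB9, PSMB11, PSMC5, PSMD7, PSMD13 and PSMF1 are not named in the gene table used here and were not analysed.

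Caco-2 cells are an established line from a human colon carcinoma, used as a model of the intestinal epithelium. ZNF658 is a zinc finger protein that binds the zinc transcriptional regulatory element (ZTRE) in promoters of genes of zinc homeostasis. Its mRNA was targeted by transfected siRNA, and RNA was hybridized to Illumina HT12 bead chips in 4 groups of 3 arrays: ZNF658 siRNA 1, from Ambion, with control siRNA 1, an Ambion sense control, and ZNF658 siRNA 2, a Dharmacon pool, with control siRNA 2, a Dharmacon non-targeting siRNA. The suppliers are given as the sample labels name them, whereas a supplementary table of the study lists only the Dharmacon control for the arrays, so the supplier of control siRNA 1 is not settled. All 4 groups were transfected with the same lipid reagent. The labels do not say whether the 3 arrays of a group came from separate cultures, so the P values measure only the spread between these arrays, and no tested probe is named ZNF658, so the knockdown was not read here.

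The core particle of the proteasome (20S) is a barrel of outer rings of alpha subunits, which gate the entry, and inner rings of beta subunits, of which PSMB6, PSMB7 and PSMB5 carry the caspase-like, trypsin-like and chymotrypsin-like active sites. The regulatory particle (19S) caps the barrel. Its base holds a ring of ATPases that unfold the substrate, the PSMC genes, and its lid holds the deubiquitinase PSMD14. In human cells the subunit genes can be induced together by the transcription factor NFE2L1 when proteolysis is inhibited. All arrays came from 1 cell line, and 9 of the 17 enterocyte and colon epithelium markers examined were named and tested, CDH1, EPCAM, KRT8, KRT18, CDX1, CDX2, APOA1, APOB and DPP4, while VIL1, KRT20, HNF4A, FABP1, LGALS4, ALPI, SI and ANPEP were not named here. Of 17 trophoblast markers, 14 were detected too and are given beside the comparison of the suppliers.

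Some arrays stood apart. For replicate 3 of ZNF658 siRNA 2, the correlation over all tested probes was 0.971 to 0.983 with the other arrays of its group and 0.987 to 0.989 with the first pair of control siRNA 2 arrays. For replicate 3 of control siRNA 2, it was 0.960 to 0.973 with the first pair of ZNF658 siRNA 2 arrays and 0.945 to 0.948 with the other arrays of its group. Both arrays thus lay closer to the other group of the Dharmacon pair than to their own, and the siRNA 2 counts and a number of single values are also given without them. In the Ambion pair, replicate 3 of ZNF658 siRNA 1 and replicate 1 of control siRNA 1 were each other's closest array, at 0.990, against 0.979 to 0.981 and 0.983 to 0.985 with the other arrays of their own groups, and the siRNA 1 counts are also given without them. Between 14454 and 16167 probes were detected per array, and a probe for 18S rRNA (RNA18SN5) ran between 9.57 and 14.74 on the log2 scale, with the highest values on replicates 2 and 3 of control siRNA 1 and replicates 1 and 2 of ZNF658 siRNA 2.

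Proteasome transcripts were abundant in these cells. The 56 probes had a median level of 11.02 (log2 of the background-corrected, quantile-normalized intensity), with a range of 6.48 to 14.08, and 87.3% of all tested probes lay at or below that median. Their spread between replicate arrays was small: the median SD within a group was 0.191 on the log2 scale, against 0.267 over all tested probes and 0.215 over tested probes with levels between the members' quartiles. On each array the deviation of a probe from its own mean over the 12 arrays was taken. The median deviation of the 56 probes was 0.00, 0.00 and 0.03 on the ZNF658 siRNA 1 arrays, against 0.12, 0.00 and 0.10 on the control siRNA 1 arrays. It was −0.06, −0.09 and −0.02 on the ZNF658 siRNA 2 arrays, against 0.03, 0.02 and −0.18 on the control siRNA 2 arrays. The medians of control siRNA 1 were at or above those of the 6 Dharmacon arrays except that replicate 2 lay below replicates 1 and 2 of control siRNA 2, and the lowest median of all 12 was on replicate 3 of control siRNA 2.

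**Figure D1:**
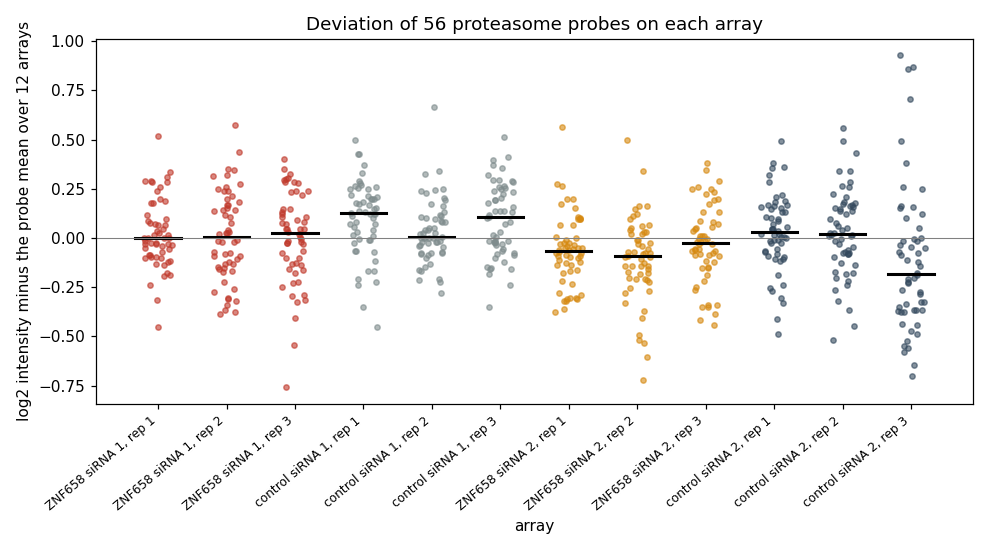
Deviation of each of the 56 proteasome probes from its mean over the 12 arrays (vertical axis, log2 intensity; points, probes; black bars, medians) on each array, coloured by group. The medians lie between −0.18 and 0.12, with the lowest on replicate 3 of control siRNA 2, where the points are also the most scattered.

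No proteasome probe was called with either ZNF658 siRNA. A call needed a limma P value under 0.05 after Benjamini-Hochberg adjustment over all 14804 tested probes, together with a change of at least 1.2-fold. With ZNF658 siRNA 1 against control siRNA 1, 0 of 56 probes were called, where 0.0135% of all tested probes (2) were called. With ZNF658 siRNA 2 against control siRNA 2, 0 of 56 were called and 0% of all tested probes. For the mean of both effects, 0 of 56 were called and 0.00675% of all (1), and for the difference between the effects (siRNA 2 minus siRNA 1), 0 of 56 and 0% of all. So few probes of any kind passed that the absence of a call says little about the proteasome itself. At an unadjusted P value under 0.05, 0 members were higher and 3 lower with siRNA 1, where 4.32% and 2.89% of all tested probes were. With siRNA 2 there were 0 higher and 0 lower (3.29% and 2.36% of all). For the mean of both siRNAs there were 0 higher and 3 lower (1.41% and 1.11% of all), and for the difference 3 higher and 0 lower (5.01% and 5.78% of all).

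The intervals show what size of change these arrays could have held. With ZNF658 siRNA 1, the 95% interval of the fold change lay within 1.5-fold either way for 38 of 56 members (67.9%), against 37.4% of all tested probes, and with siRNA 2 for 38 of 56 (67.9%), against 39.8%. For the mean of both siRNAs it did so for 52 of 56 (92.9%), against 80.2% of all. Changes of 1.2-fold or more in the estimate itself were seen in 1 member upward and 6 downward with siRNA 1 (16.2% and 15.4% of all tested probes), in 2 upward and 3 downward with siRNA 2 (12.6% and 13.3%), and in 0 upward and 2 downward for the mean (4.27% and 4.28%). The median log2 fold change of the 56 members was −0.07 with siRNA 1 and −0.04 with siRNA 2, against −0.01 and 0.00 over all tested probes, and with median scaling in place of quantile normalization it was 0.17 and −0.19, against 0.18 and −0.11 over all tested probes. For the mean of both siRNAs it was −0.06, against 0.00 over all tested probes. Of the members, 35 of 56 had an estimate below 0 with siRNA 1, 37 with siRNA 2 and 38 for the mean. Over all tested probes 51.4%, 49.9% and 49.1% did. Without the PSMC3IP probes it was 32, 34 and 35 of 53 members, with medians of −0.05, −0.03 and −0.04. The interval then lay within 1.5-fold for 38 of 53 (71.7%) with each siRNA. With all arrays and quantile normalization the members sat a few percent below the middle of all probes, and with median scaling the sign for siRNA 1 turned with that of all probes.

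Leaving out the arrays that stood apart changed many single estimates. Without replicate 3 of both siRNA 2 groups, the siRNA 2 estimate turned in sign for 16 of 56 members, and the median was −0.10, against −0.02 over all tested probes. At an unadjusted P value under 0.05 there were then 2 members higher and 5 lower with siRNA 2 (10.4% and 10.8% of all), and 1 higher and 7 lower for the mean of both siRNAs (3.76% and 3.39% of all). In limma 0 members were called in either, against 1.81% and 0% of all tested probes. The interval lay within 1.5-fold for 34 of 56 with siRNA 2 (27.6% of all). Without replicate 3 of ZNF658 siRNA 1 and replicate 1 of control siRNA 1, a choice made after the data were seen, 8 of 56 siRNA 1 estimates turned in sign and the median was −0.03. Then 1 member was higher and 6 lower at an unadjusted P value under 0.05 (6.3% and 4.35% of all), 0 were called in limma (0% of all), and 25 intervals lay within 1.5-fold (14.8% of all).

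**Figure D2:**
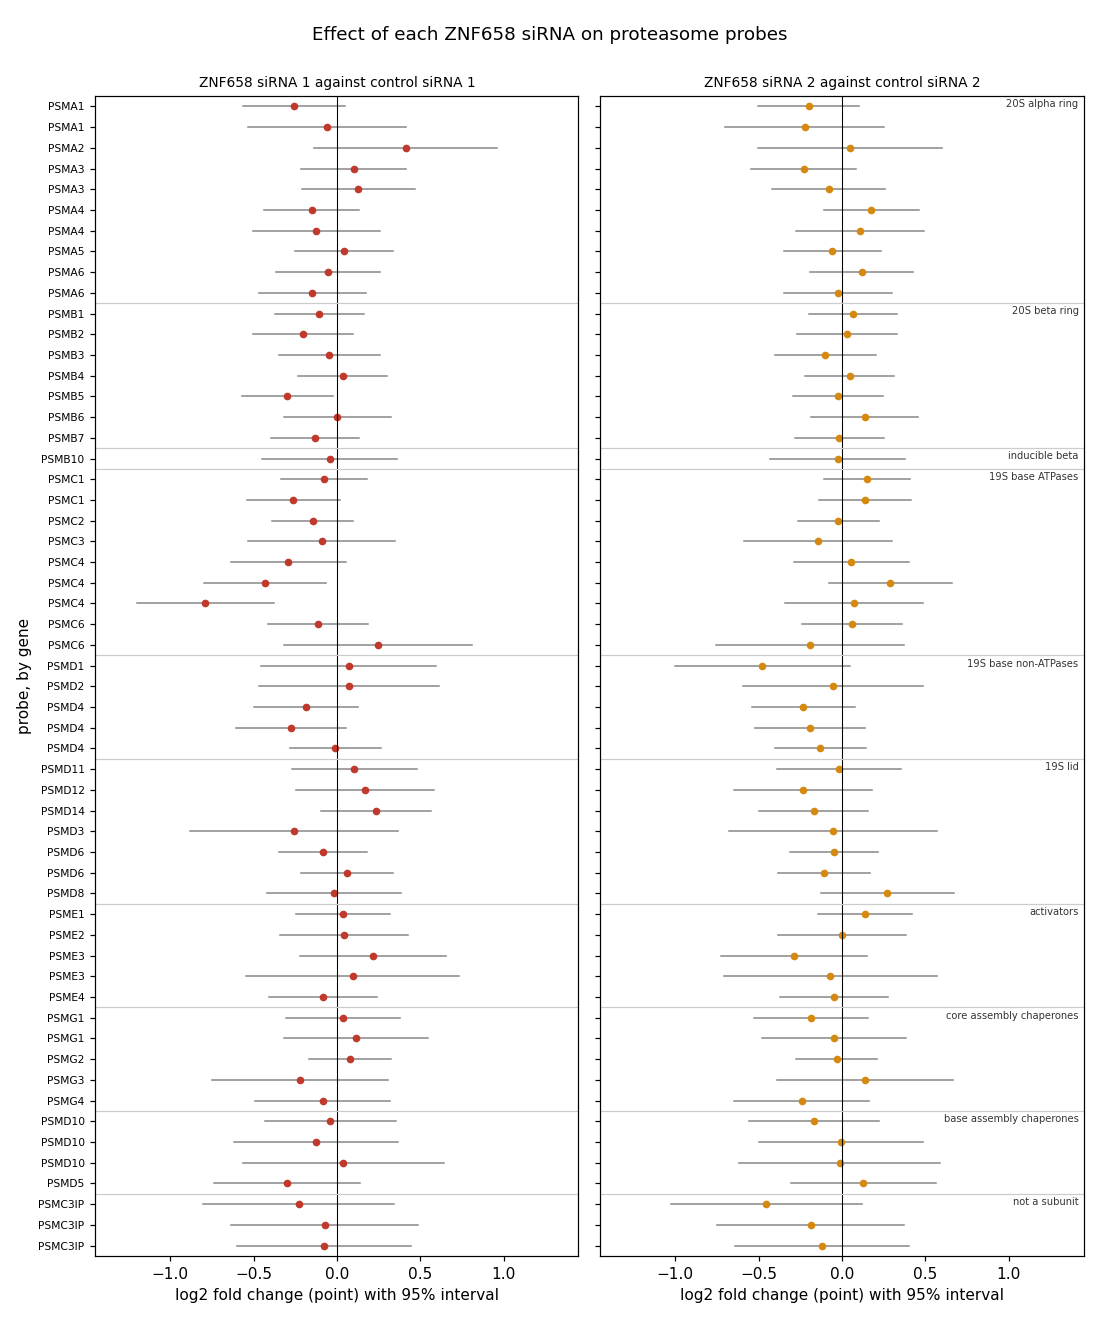
Log2 fold change with its 95% interval for each of the 56 proteasome probes, grouped by role from the alpha ring at the top to PSMC3IP at the bottom, for ZNF658 siRNA 1 (left) and ZNF658 siRNA 2 (right), each against its own control. Most intervals cross 0, and the PSMC4 probe at −0.79 with siRNA 1 lies farthest from it.

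The alpha ring had 10 tested probes for PSMA1 to PSMA6, with log2 fold changes of −0.26 to 0.41 with siRNA 1 and −0.23 to 0.18 with siRNA 2. PSMA1 had 12.46, 12.28 and 12.48 on the log2 scale on the ZNF658 siRNA 1 arrays, against 12.59, 12.71 and 12.69 on the control siRNA 1 arrays. It had 12.08, 11.97 and 12.28 on the ZNF658 siRNA 2 arrays, against 12.42, 12.51 and 12.00 on the control siRNA 2 arrays. The first pair of groups did not overlap, with every knockdown array the lower, and in the second pair only replicate 3 of control siRNA 2 fell within the range of the knockdown arrays. The log2 fold change of PSMA1 was −0.26 (SE 0.14) with siRNA 1 and −0.20 (SE 0.14) with siRNA 2, and −0.23 (SE 0.10) for the mean, which missed the threshold in limma (unadjusted P = 0.0386, adjusted P = 0.997). Without replicate 3 of both siRNA 2 groups, the siRNA 2 value was −0.44 (SE 0.14, limma adjusted P = 0.0883), and with median scaling the siRNA 1 value was 0.01. The second, dimmer PSMA1 probe had −0.06 and −0.22. PSMA2 went the other way, with 9.18, 9.57 and 8.90 on the ZNF658 siRNA 1 arrays, against 8.77, 8.72 and 8.92 on the control siRNA 1 arrays. Its log2 fold change of 0.41 with siRNA 1 was the largest upward estimate among the members, but its SE was 0.26 and its limma adjusted P value 0.744, and the groups overlapped. With siRNA 2 PSMA2 had 8.69, 9.09 and 9.23 on the knockdown arrays, against 9.31, 9.26 and 8.29 on the control siRNA 2 arrays, a log2 fold change of 0.05, which was −0.40 (SE 0.21) without replicate 3 of both groups. PSMA3 had 11.83, 11.87 and 11.67 on the ZNF658 siRNA 2 arrays, against 12.03, 11.98 and 12.05 on the control siRNA 2 arrays, all below, and 12.06, 12.12 and 11.56 on the ZNF658 siRNA 1 arrays, against 11.72, 11.86 and 11.87 on the control siRNA 1 arrays, with overlap. PSMA4 had 12.92, 12.99 and 12.93 on the ZNF658 siRNA 2 arrays, against 12.97, 12.87 and 12.46 on the control siRNA 2 arrays, and 12.98, 12.99 and 12.92 on the ZNF658 siRNA 1 arrays, against 12.96, 13.18 and 13.21 on the control siRNA 1 arrays. Its groups overlapped in both pairs, at −0.15 with siRNA 1 and 0.18 with siRNA 2. PSMA5 had 0.04 and −0.06, and the brighter PSMA6 probe −0.05 and 0.12. Once replicate 3 of both siRNA 2 groups was left out, the siRNA 2 values were −0.15 for PSMA3, 0.03 for PSMA4, 0.02 for PSMA5 and −0.15 for PSMA6.

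The beta ring had 7 tested probes, 1 each for PSMB1 to PSMB7, at −0.30 to 0.03 with siRNA 1 and −0.10 to 0.14 with siRNA 2. PSMB5, the chymotrypsin-like subunit, had 12.18, 12.10 and 12.36 on the ZNF658 siRNA 1 arrays, against 12.53, 12.38 and 12.63 on the control siRNA 1 arrays. The groups did not overlap, though the highest knockdown array was only just under the lowest control. Its log2 fold change was −0.30 (SE 0.13, an interval of 0.674- to 0.982-fold), with an unadjusted P value of 0.0341 and an adjusted one of 0.685 in limma, and with median scaling it was −0.03. On the ZNF658 siRNA 2 arrays it had 12.48, 12.22 and 12.43, against 12.37, 12.31 and 12.53 on the control siRNA 2 arrays, which overlapped, at a log2 fold change of −0.02 (0.814- to 1.19-fold).

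PSMB6, the caspase-like subunit, had 13.62, 13.57 and 13.94 on the ZNF658 siRNA 1 arrays, against 13.78, 13.63 and 13.72 on the control siRNA 1 arrays, and 13.48, 13.57 and 13.90 on the ZNF658 siRNA 2 arrays, against 13.70, 13.63 and 13.21 on the control siRNA 2 arrays. Both pairs overlapped, and the folds lay within 0.802- to 1.25-fold and 0.88- to 1.37-fold. PSMB7, the trypsin-like subunit and the brightest member, had 13.97, 13.91 and 14.36 on the ZNF658 siRNA 1 arrays, against 14.13, 14.17 and 14.33 on the control siRNA 1 arrays. It had 13.96, 14.00 and 14.06 on the ZNF658 siRNA 2 arrays, against 14.15, 13.91 and 14.01 on the control siRNA 2 arrays. Its groups overlapped in both pairs, with log2 fold changes of −0.13 and −0.02 and intervals of 0.76- to 1.1-fold and 0.824- to 1.19-fold. PSMB10 replaces PSMB7 in the immunoproteasome, the form that interferon gamma induces and that cuts peptides for MHC class I. It was the only inducible catalytic subunit tested, at 10.80, 10.67 and 11.28 on the ZNF658 siRNA 1 arrays, against 11.18, 10.93 and 10.77 on the control siRNA 1 arrays, and 10.87, 10.78 and 11.06 on the ZNF658 siRNA 2 arrays, against 11.10, 11.11 and 10.59 on the control siRNA 2 arrays. Its log2 fold changes were −0.04 and −0.03, with overlapping groups, and its intervals still reached 0.733- to 1.28-fold and 0.742- to 1.3-fold. The siRNA 2 values of PSMB5, PSMB6, PSMB7 and PSMB10 were 0.01, −0.14, −0.05 and −0.27 when replicate 3 of both siRNA 2 groups was left out.

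The ATPases of the 19S base held the lowest siRNA 1 estimate among the members. Of their 9 probes for PSMC1, PSMC2, PSMC3, PSMC4 and PSMC6, 8 were below 0 with siRNA 1 (median −0.15), where 51.4% of all tested probes were, and 3 with siRNA 2 (median 0.06), where 49.9% were, and with median scaling it was 4 (median 0.11) and 8 (median −0.09). PSMC4, 1 of the 6 ATPases of the ring, has 3 probes, given here from the brightest to the dimmest. The brightest had 10.97, 10.69 and 11.28 on the ZNF658 siRNA 1 arrays, against 11.21, 11.32 and 11.29 on the control siRNA 1 arrays. The middle one had 10.73, 10.44 and 10.91 on the ZNF658 siRNA 1 arrays, against 11.09, 11.01 and 11.28 on the control siRNA 1 arrays. The dimmest had 9.61, 9.69 and 9.30 on the ZNF658 siRNA 1 arrays, against 10.35, 10.52 and 10.12 on the control siRNA 1 arrays. All knockdown arrays were below all control arrays for the middle and dimmest probes, and for the brightest a knockdown array reached into the control range. The log2 fold changes with siRNA 1 were −0.29 (SE 0.16), −0.43 (SE 0.17) and −0.79 (SE 0.19), and with median scaling −0.05, −0.21 and −0.57. The dimmest had an unadjusted limma P value of 0.00101 and, like the middle one, an adjusted one of 0.685, so neither passed. With array quality weights the dimmest probe was called (log2 fold change −0.77, limma adjusted P = 0.0135), in a fit that called 5.68% of all tested probes.

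With siRNA 2 the PSMC4 probes overlapped their control. The brightest probe had 11.06, 10.81 and 10.81 on the ZNF658 siRNA 2 arrays, against 10.89, 10.63 and 10.99 on the control siRNA 2 arrays. The middle one had 11.03, 10.55 and 10.70 on the ZNF658 siRNA 2 arrays, against 10.51, 10.24 and 10.65 on the control siRNA 2 arrays. The dimmest had 10.13, 9.79 and 9.50 on the ZNF658 siRNA 2 arrays, against 10.01, 9.61 and 9.58 on the control siRNA 2 arrays. Their log2 fold changes were 0.06, 0.29 and 0.07, with median scaling −0.09, 0.15 and −0.06, and without replicate 3 of both groups 0.18, 0.41 and 0.15. With array quality weights the middle probe was called higher with siRNA 2 (log2 fold change 0.53, limma adjusted P = 0.0449), in a fit that called 4.05% of all tested probes. The difference between the siRNA effects (siRNA 2 minus siRNA 1) was 0.35 (SE 0.23), 0.72 (SE 0.24) and 0.86 (SE 0.27), with limma adjusted P values of 0.629, 0.332 and 0.306. With median scaling it was −0.04, 0.36 and 0.51. Without replicate 3 of ZNF658 siRNA 2 and of control siRNA 2, limma called it for the middle probe at 0.84 (adjusted P = 0.0443) and for the dimmest at 0.94 (adjusted P = 0.0339), in a fit that called 9.64% of all tested probes. Each of the 3 probes had its highest group mean in control siRNA 1 (11.27 ± 0.06, 11.13 ± 0.14 and 10.33 ± 0.20, SD, n = 3), and control siRNA 1 enters both the siRNA 1 comparison and the comparison of the controls. RNA18SN5 was at 10.74, 14.55 and 14.74 on those 3 arrays. Its part in the result was not tested.

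**Figure D3:**
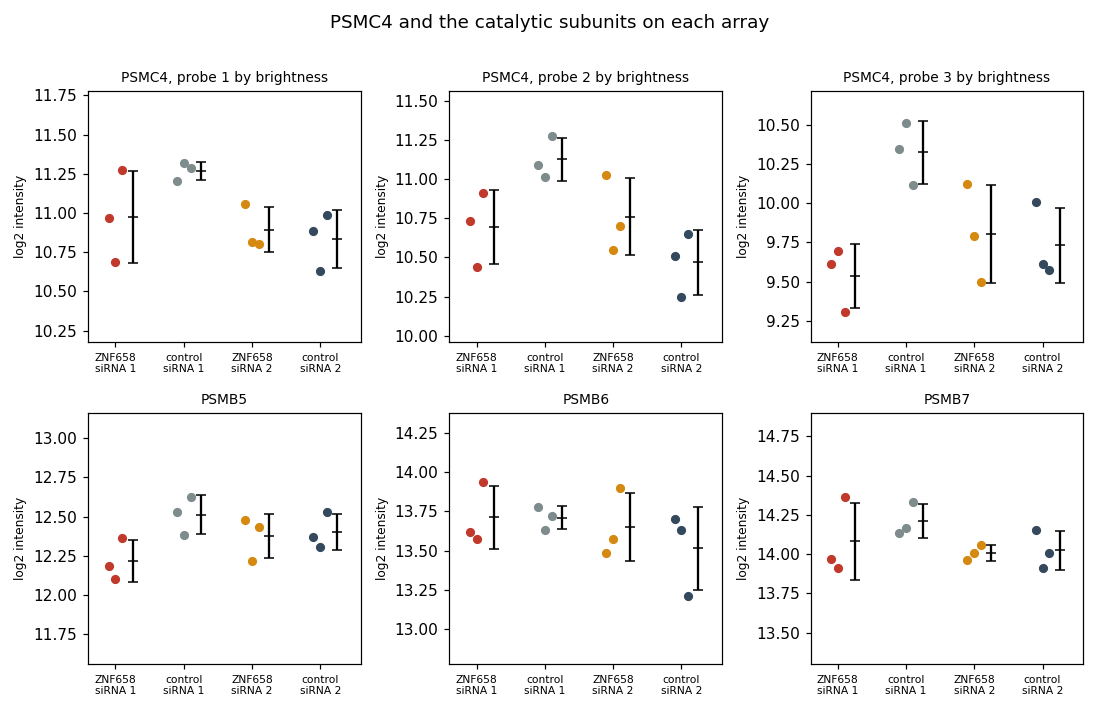
Log2 intensity of the 3 PSMC4 probes (top) and of the catalytic subunits PSMB5, PSMB6 and PSMB7 (bottom) on each array, in 4 groups of 3 (points, arrays; bars, mean and SD). Every panel spans the same range of log2 units, and for each PSMC4 probe the mean of control siRNA 1 is the highest of the 4, with 1 array of ZNF658 siRNA 1 or of ZNF658 siRNA 2 reaching into its range.

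PSMC1 is another ATPase of the ring. Its dimmer probe had 12.35, 12.33 and 12.59 on the ZNF658 siRNA 1 arrays, against 12.71, 12.69 and 12.65 on the control siRNA 1 arrays, and the groups did not overlap. On the ZNF658 siRNA 2 arrays it had 12.45, 12.30 and 12.49, against 12.49, 12.25 and 12.08 on the control siRNA 2 arrays, which overlapped. The log2 fold changes were −0.26 (SE 0.13) with siRNA 1 and 0.14 (SE 0.13) with siRNA 2, and with median scaling −0.01 and −0.04. Its brighter probe had 12.94, 12.70 and 12.86 on the ZNF658 siRNA 2 arrays, against 12.74, 12.67 and 12.64 on the control siRNA 2 arrays, and 12.85, 12.76 and 13.08 on the ZNF658 siRNA 1 arrays, against 12.95, 12.88 and 13.09 on the control siRNA 1 arrays. Its values were −0.08 with siRNA 1 and 0.15 with siRNA 2, and no PSMC1 value passed. Leaving out replicate 3 of both siRNA 2 groups gave 0.01 for the dimmer and 0.12 for the brighter probe with siRNA 2. PSMC2, PSMC3 and the brighter probe of PSMC6 had −0.15, −0.09 and −0.11 with siRNA 1, and −0.02, −0.14 and 0.06 with siRNA 2. The dim second probe of PSMC6 had 0.25 and −0.19, the opposite of the brighter probe in both comparisons. The dim PSMC6 probe, on the arrays other than replicate 3 of both siRNA 2 groups, had −0.60 with siRNA 2, the brighter one −0.10, and PSMC3 −0.49 (SE 0.20, limma adjusted P = 0.168).

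The promoters of the genes whose lower siRNA 1 values were just described (PSMC4, PSMA1 and PSMB5) are shown because ZNF658 acts through a promoter element and NFE2L1 through another. They are the RefSeq windows from 250 bases before to 50 after a gene's start (GRCh38.p14), found for 34 of the 39 tested genes. The windows of PSMC4 and PSMB5 are at the outermost start of the gene, but that of PSMA1 is at an inner start, 123276 bases inside the span annotated for it (14504876 to 14643662 on chromosome 11). Of the 34 windows, 28 are at the outermost start, and that of PSMA6 is 13759 bases inside. None was found for PSMB1, PSMB6, PSMB7, PSMD4 and PSMG3. Each is written 5′ to 3′ on the strand of the gene. In PSMC4 capitals mark a match to TGACNNNGC, the core of the antioxidant response element to which NFE2L1 and NFE2L2 bind with small MAF proteins, and in PSMA1 the arms of a match to the ZTRE. In PSMB5 there was no match to either. The windows are chr19:39970915-39971214 (plus strand) for PSMC4, chr11:14520337-14520636 (minus strand) for PSMA1 and chr14:23035171-23035470 (minus strand) for PSMB5.
PSMC4: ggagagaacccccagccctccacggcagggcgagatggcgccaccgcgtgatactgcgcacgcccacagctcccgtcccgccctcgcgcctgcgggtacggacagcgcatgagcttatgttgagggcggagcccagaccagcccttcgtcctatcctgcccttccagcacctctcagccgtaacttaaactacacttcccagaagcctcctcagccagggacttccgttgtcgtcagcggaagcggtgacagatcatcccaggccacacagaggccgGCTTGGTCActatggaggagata
PSMA1: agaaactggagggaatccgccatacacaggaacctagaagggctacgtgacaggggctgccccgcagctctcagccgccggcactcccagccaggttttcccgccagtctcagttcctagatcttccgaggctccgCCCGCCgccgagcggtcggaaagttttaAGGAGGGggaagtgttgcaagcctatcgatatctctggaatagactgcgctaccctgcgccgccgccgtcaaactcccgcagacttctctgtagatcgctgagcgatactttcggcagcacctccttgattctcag
PSMB5: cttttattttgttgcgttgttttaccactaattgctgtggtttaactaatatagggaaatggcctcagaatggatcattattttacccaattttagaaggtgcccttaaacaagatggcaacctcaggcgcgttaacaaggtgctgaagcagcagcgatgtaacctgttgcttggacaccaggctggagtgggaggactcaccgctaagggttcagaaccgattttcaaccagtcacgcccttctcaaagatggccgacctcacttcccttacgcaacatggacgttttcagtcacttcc
The PSMC4 match lies on the opposite strand, at bases 28 to 36 counted from the first transcribed base. The PSMA1 arms are 22 bases apart and run from 114 to 80 bases upstream of the start. Searched on both strands, TGACNNNGC was found in 11 of the 34 promoters (32.4%) and in 13.6% of all 27305 promoters of the same length. The matches were in PSMB3, PSMC4, PSMD1, PSMD12, PSMD3, PSMD5, PSME1, PSME2, PSME4, PSMG1 and PSMG2. The ZTRE, with up to 50 bases between its arms, was found in 4 of 34 (11.8%), those of PSMA1, PSMA6, PSMC3 and PSMD11, and in 21.9% of all promoters. All promoters here were not limited to genes tested on these arrays, so both pairs of shares compare unlike sets. The study searched wider windows for the ZTRE. The matches did not overlap each other in the windows printed, and a match of letters is no evidence of binding.

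The other subunits of the 19S base are the scaffold proteins PSMD1 and PSMD2 and the ubiquitin receptor PSMD4, with 5 probes in all. PSMD4 had 3 probes, at −0.18, −0.28 and −0.01 with siRNA 1 and −0.23, −0.19 and −0.13 with siRNA 2, from the brightest to the dimmest. The brightest had 11.83, 11.78 and 12.05 on the ZNF658 siRNA 1 arrays, against 12.12, 11.96 and 12.14 on the control siRNA 1 arrays, and 11.83, 11.89 and 11.50 on the ZNF658 siRNA 2 arrays, against 11.95, 11.78 and 12.18 on the control siRNA 2 arrays. Both pairs overlapped. The middle one had 11.55, 11.51 and 11.42 on the ZNF658 siRNA 2 arrays, against 11.78, 11.60 and 11.67 on the control siRNA 2 arrays, without overlap, and 11.65, 11.30 and 11.97 on the ZNF658 siRNA 1 arrays, against 11.82, 11.87 and 12.06 on the control siRNA 1 arrays, with overlap. Its mean log2 fold change over both siRNAs was −0.23 (SE 0.11, unadjusted P = 0.0496, adjusted P = 0.997 in limma), while the dimmest probe had −0.07. The siRNA 2 values of the PSMD4 probes were −0.01, −0.16 and −0.08 after replicate 3 of both groups was left out. The members with an unadjusted P value under 0.05 for that mean, with all arrays, were this probe, the brighter PSMA1 probe and the dimmest PSMC4 probe (−0.36, SE 0.14). PSMD1 had the lowest siRNA 2 estimate among the members, −0.48 (SE 0.25), with 10.07, 10.15 and 9.80 on the ZNF658 siRNA 2 arrays, against 9.97, 10.32 and 11.17 on the control siRNA 2 arrays. The highest of these was replicate 3 of control siRNA 2, and without replicate 3 of both groups the estimate was −0.03. With siRNA 1 PSMD1 had 10.53, 10.27 and 10.01 on the knockdown arrays, against 10.03, 10.34 and 10.23 on the control siRNA 1 arrays, which overlapped. PSMD2 had 0.07 with siRNA 1 and −0.05 with siRNA 2, and the siRNA 2 value was 0.45 (SE 0.19, limma adjusted P = 0.191) without replicate 3 of both siRNA 2 groups.

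The lid had 7 probes for PSMD3, PSMD6, PSMD8, PSMD11, PSMD12 and PSMD14, at −0.26 to 0.23 with siRNA 1 and −0.23 to 0.27 with siRNA 2. PSMD14, the deubiquitinase that removes ubiquitin chains at the entry, had 12.56, 12.59 and 12.02 on the ZNF658 siRNA 1 arrays, against 12.18, 12.08 and 12.21 on the control siRNA 1 arrays. It had 12.03, 12.21 and 12.17 on the ZNF658 siRNA 2 arrays, against 12.41, 12.40 and 12.10 on the control siRNA 2 arrays. Both pairs overlapped, and its log2 fold changes were 0.23 with siRNA 1 and −0.17 with siRNA 2. PSMD12, a structural lid subunit, had 10.68, 10.71 and 10.97 on the ZNF658 siRNA 2 arrays, against 11.19, 11.38 and 10.49 on the control siRNA 2 arrays. Here replicate 3 of each group lay on the side of the other group. With all arrays the log2 fold change was −0.23 (SE 0.19, limma adjusted P = 0.956), and without those arrays it was −0.59 (SE 0.15, adjusted P = 0.0529). With array quality weights, which set replicate 3 of control siRNA 2 to 0.156, PSMD12 was called lower (−0.53, limma adjusted P = 0.0326). That fit called 4.05% of all tested probes with siRNA 2. With siRNA 1 PSMD12 had 11.33, 11.36 and 11.09 on the knockdown arrays, against 11.11, 11.15 and 11.01 on the control siRNA 1 arrays, a log2 fold change of 0.17. The difference between the siRNAs was −0.40 with all arrays (adjusted P = 0.645) and −0.76 without replicate 3 of the siRNA 2 groups, where it passed (limma adjusted P = 0.0267). In that fit 9.64% of all tested probes were called for the difference. Among the brightest probes of each gene, the lid subunit PSMD8 had the highest siRNA 2 estimate at 0.27 (0.13 without replicate 3 of both groups), with −0.02 for siRNA 1. Its values were 11.04, 10.37 and 10.68 on the ZNF658 siRNA 2 arrays, against 10.61, 10.54 and 10.13 on the control siRNA 2 arrays, and 10.34, 10.47 and 10.35 on the ZNF658 siRNA 1 arrays, against 10.65, 10.27 and 10.30 on the control siRNA 1 arrays. Both pairs overlapped. PSMD3 had −0.26 and −0.05, and without replicate 3 of both siRNA 2 groups the siRNA 2 value was 0.53 (SE 0.21, limma adjusted P = 0.158). PSMD11 had 0.10 and −0.02, and PSMD6, with 2 probes, −0.08 and 0.06 with siRNA 1 and −0.05 and −0.11 with siRNA 2. The brighter PSMD6 probe had 12.43, 12.33 and 12.41 on the ZNF658 siRNA 1 arrays, against 12.45, 12.44 and 12.53 on the control siRNA 1 arrays, without overlap although the estimate was among the smaller ones.

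Activators open the barrel in place of the 19S cap. PSME1 and PSME2 form the interferon-inducible activator PA28, PSME3 its nuclear relative, and PSME4 is PA200. PSME1 had 11.60, 11.55 and 11.57 on the ZNF658 siRNA 2 arrays, against 11.40, 11.37 and 11.54 on the control siRNA 2 arrays. It was the only member with every knockdown array above every control array in either ZNF658 comparison, at a log2 fold change of 0.14, and with siRNA 1 it had 11.30, 11.73 and 11.47 on the knockdown arrays, against 11.42, 11.49 and 11.48 on the control siRNA 1 arrays, at 0.04. PSME2 had 0.04 and 0.00, and PSME4 −0.08 and −0.05. The brighter PSME3 probe had 0.22 with siRNA 1 and −0.29 with siRNA 2, and the dimmer 0.10 and −0.07. The brighter one had 9.55, 9.58 and 9.20 on the ZNF658 siRNA 1 arrays, against 8.92, 9.32 and 9.46 on the control siRNA 1 arrays, and 8.95, 9.19 and 9.02 on the ZNF658 siRNA 2 arrays, against 8.94, 9.43 and 9.65 on the control siRNA 2 arrays. Its groups overlapped in both pairs. After leaving out replicate 3 of both siRNA 2 groups, the siRNA 2 values were 0.19 for PSME1, −0.30 for PSME2, 0.08 for PSME4, −0.12 for the brighter PSME3 probe and 0.39 for the dimmer. The chaperones PSMG1 to PSMG4, which build the alpha ring, had 5 probes at −0.22 to 0.12 with siRNA 1 and −0.24 to 0.14 with siRNA 2. PSMD5 and PSMD10, chaperones of the base, had 4 probes at −0.30 to 0.04 and −0.17 to 0.13. These 4 ran, when replicate 3 of both siRNA 2 groups was left out, from −0.49 to −0.10 with siRNA 2, and the 5 PSMG probes from −0.30 to 0.00. PSMD5 had the lowest siRNA 1 estimate among the brightest probes of each gene (−0.30, SE 0.20), with 8.63, 8.32 and 8.93 on the ZNF658 siRNA 1 arrays, against 8.88, 8.87 and 9.03 on the control siRNA 1 arrays, which overlapped. With siRNA 2 it had 8.58, 8.49 and 8.58 on the knockdown arrays, against 8.62, 8.66 and 7.99 on the control siRNA 2 arrays, a log2 fold change of 0.13, which was −0.10 without replicate 3 of both groups. PSMC3IP, the recombination protein, had 6.72, 6.95 and 6.64 on the ZNF658 siRNA 2 arrays, against 7.31, 7.52 and 6.84 on the control siRNA 2 arrays, and the mean over both siRNAs was −0.34, −0.13 and −0.10 for its 3 probes, none of them called. Its siRNA 2 values ran from −0.58 to −0.35 without replicate 3 of both siRNA 2 groups. With siRNA 1 the brightest of the 3 had 7.36, 7.19 and 6.27 on the knockdown arrays, against 7.31, 7.08 and 7.13 on the control siRNA 1 arrays, which overlapped. At group means of 6.41 to 7.22 it was among the dimmest members.

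Over all members, the groups did not overlap for 6 of 56 probes with siRNA 1, all 6 below the control (8.19% of all tested probes were above and 8.46% below). These were probes of PSMA1, PSMB5, PSMC1, PSMC4 (2 probes) and PSMD6. With siRNA 2 it was 1 above and 2 below, PSME1, PSMA3 and PSMD4 (4.99% and 4.49% of all). Of the 13 genes with several probes, PSMC6, PSMD10 and PSMD6 had probes of opposite sign with siRNA 1, and PSMA6 and PSMC6 with siRNA 2. For the mean of both siRNAs it was 8 of 13, PSMA3, PSMA4, PSMA6, PSMC1, PSMC6, PSMD10, PSME3 and PSMG1, and between the controls 5 of 13, PSMC3IP, PSMC6, PSMD10, PSMD4 and PSMD6.

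More probes were called between the controls than with either ZNF658 siRNA. Between control siRNA 2 and control siRNA 1, limma called 2.03% of all tested probes and 0 of the 56 members, and between the 6 Dharmacon and the 6 Ambion arrays 4.61% of all and 0 of 56. At an unadjusted P value under 0.05, 0 members were higher and 10 lower between the controls, where 6.87% and 8.07% of all tested probes were, and 0 higher and 7 lower between the suppliers, where 8.06% and 8.78% were. When replicate 3 of both siRNA 2 groups was left out it was 1 higher and 6 lower between the controls (11.1% and 11.1% of all) and 0 and 6 between the suppliers (9.54% and 10.1%), and limma then called 1 member in each, against 5.53% and 6.04% of all. The groups did not overlap for 11 members between the controls, 1 above (PSMA3) and 10 below (9.22% and 11.3% of all). The median log2 fold change of the members was −0.07 between the controls and −0.08 between the suppliers, against 0.01 and 0.00 over all tested probes, and with median scaling 0.14 and −0.05, against 0.17 and 0.02 over all tested probes. Of the 56, 35 and 43 were below 0 with quantile normalization, where 49% and 49.6% of all tested probes were.

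The 10 probes below 0 at P under 0.05 between the controls were the 3 of PSMC4, both of PSMC1, the brighter ones of PSMA1, PSMA4 and PSMA6, and those of PSMB4 and PSMD5. Without replicate 3 of both siRNA 2 groups, these PSMA1, PSMA4 and PSMA6 probes had −0.20, −0.19 and −0.14. PSMB4 then had −0.35, and the dimmer and brighter PSMC1 probes −0.32 and −0.27. With all arrays PSMC4 had −0.43 (SE 0.16), −0.66 (SE 0.17) and −0.59 (SE 0.19), with limma adjusted P values of 0.209, 0.0647 and 0.148. All control siRNA 2 arrays were below all control siRNA 1 arrays for each of the 3. The middle probe passed in limma without replicate 3 of control siRNA 2 (−0.75, adjusted P = 0.0252). The fit without replicate 3 of both siRNA 2 groups called 5.53% of all tested probes between the controls. Between the suppliers, where the ZNF658 siRNA 1 arrays count with control siRNA 1, the PSMC4 values were −0.26, −0.30 and −0.16. PSMB4, a beta subunit without an active site, had 12.25, 12.56 and 12.55 on the ZNF658 siRNA 2 arrays and 12.33, 12.36 and 12.53 on the control siRNA 2 arrays, against 12.81, 12.60 and 12.79 on the ZNF658 siRNA 1 arrays and 12.77, 12.60 and 12.73 on the control siRNA 1 arrays. All 6 Dharmacon arrays were below all 6 Ambion arrays. Its log2 fold change between the suppliers was −0.29 (SE 0.09, limma adjusted P = 0.0848), and −0.32 without replicate 3 of control siRNA 2 (adjusted P = 0.0453), where it passed. The fit without replicate 3 of both siRNA 2 groups called 6.04% of all tested probes between the suppliers. PSMA1 had −0.33 (SE 0.10, limma adjusted P = 0.0891). PSMD5 had the lowest value between the controls for a gene's brightest probe, −0.51, and PSMG4, a core assembly chaperone, the highest, 0.29. Without replicate 3 of both siRNA 2 groups these were −0.29 and 0.16. PSMG4 had 9.03, 9.35 and 9.59 on the control siRNA 2 arrays, against 9.27, 9.07 and 8.74 on the control siRNA 1 arrays, which overlapped, and 9.05, 9.16 and 9.03 on the ZNF658 siRNA 2 arrays, against 8.99, 8.73 and 9.11 on the ZNF658 siRNA 1 arrays. It was followed by PSMD1 at 0.28, which was −0.06 without replicate 3 of the siRNA 2 groups.

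**Figure D4:**
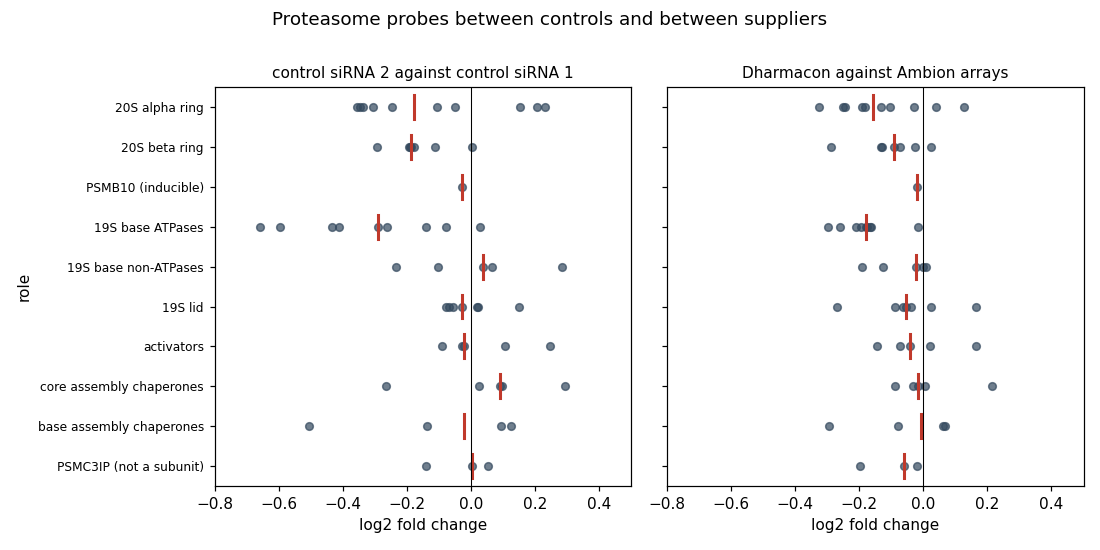
Log2 fold change of the 56 proteasome probes by role (points, probes; red bars, medians) for control siRNA 2 against control siRNA 1 (left) and the 6 Dharmacon against the 6 Ambion arrays (right). The 19S base ATPases lie lowest, with medians of −0.29 and −0.18 and 8 and 9 of 9 probes below 0 after quantile normalization, against 6 and 8 of 9 with median scaling. Over all tested probes 49% and 49.6% lay below 0 after quantile normalization.

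By role, the median between the controls was −0.29 for the 19S ATPases, −0.18 for the alpha ring and −0.19 for the beta ring, and −0.03 for the lid, −0.02 for the activators and 0.09 for the core assembly chaperones, and with median scaling it was −0.01 for the ATPases, 0.02 for the alpha ring and 0.09 for the beta ring, against 0.17 over all tested probes. The median between the controls, once replicate 3 of both siRNA 2 groups was left out, was −0.27 for the ATPases, −0.02 for the alpha ring, −0.18 for the beta ring, 0.09 for the lid and −0.21 for the other base subunits. The roles shared these arrays and this normalization, and the order was not tested. Some markers of trophoblast differed between the same arrays. The summed level of the 14 tested markers was 14.0 to 14.1 on the ZNF658 siRNA 2 arrays and 14.0 to 14.3 on the control siRNA 2 arrays, against 14.5 to 14.6 on the ZNF658 siRNA 1 arrays and 14.7 to 14.8 on the control siRNA 1 arrays (log2 of the sum). CGA, CGB5, CYP11A1, HSD3B1, ERVW-1, ERVFRD-1 and GCM1 were called lower and HAND1 higher in both comparisons, with CGB5, a chorionic gonadotropin subunit, at −3.22 between the suppliers. The other tested markers, TFAP2A, TFAP2C, GATA2, GATA3, VGLL1 and KRT7, were called in neither. Their brightest probes had −0.33 to 0.06 between the suppliers. CGB, PLAC1 and PSG5 were not named here. The enterocyte sum was 14.7 to 15.1 on the ZNF658 siRNA 2 arrays and 14.8 to 15.4 on the control siRNA 2 arrays, against 14.7 to 14.8 on the ZNF658 siRNA 1 arrays and 14.7 to 15.1 on the control siRNA 1 arrays. Among its markers, limma called DPP4 lower (−1.07, adjusted P = 0.000252) and CDX1 higher (0.43, adjusted P = 0.0307) between the suppliers. The part of these markers in the proteasome values was not tested.

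The genes that work with the proteasome gave no call with a ZNF658 siRNA either, where 0.0135% (siRNA 1) and 0% (siRNA 2) of all tested probes were called. Among 25 probes for 18 partner genes (receptors, deubiquitinases, ligases and assembly proteins), 2 were higher and 1 lower at an unadjusted P value under 0.05 with siRNA 1 (4.32% and 2.89% of all tested probes), and 0 and 0 with siRNA 2 (3.29% and 2.36% of all), with medians of 0.03 and −0.05. TXNL1, a thioredoxin-like protein bound to the 19S particle, had 0.66 with siRNA 1 and 0.14 with siRNA 2. POMP, the maturation protein of the core particle, had 0.29 and −0.26, and the ubiquitin shuttle RAD23B 0.38 and 0.16. For ubiquitin and its activating enzymes, 5 probes were tested, with medians of −0.29 and 0.00. UBB, a polyubiquitin gene, had −0.09 and 0.03, and the activating enzyme UBA1 −0.37 and 0.00. For control of proteasome transcription, 10 probes for 8 genes were tested. NFE2L1 had −0.22 and −0.15, the peptide N-glycanase NGLY1, which processes it, 0.57 and 0.13, and the ATPase VCP −0.37 and 0.23. MAFF, a small MAF partner, was the only gene of these 4 lists called in any comparison, at −0.78 between the suppliers (limma adjusted P = 0.0297), where 4.61% of all tested probes were called. It had −0.04 and 0.05 for the ZNF658 siRNAs. For class I antigen presentation, 9 probes for 8 genes were tested, with medians of 0.04 and 0.03. B2M, the light chain of class I, had −0.13 and 0.24, and the peptide transporter TAP1 0.30 and −0.07.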

How the data were processed

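RNA samples, 12 in all and 3 per group, were hybridized by the authors to Illumina HT12 bead chips. The authors exported mean bead intensities without normalization between arrays, and with each a detection P value, for 47231 probes. A second table holds log2 values, which the authors normalized before deposit (variance stabilizing normalization is named in their methods), for 21105 probes. It was used only as an alternative.

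The unnormalized intensities were the starting point (R 4.3.3, limma 3.58.1, statmod 1.5.0). The neqc function corrected the background, with the control spots inferred through the detection P values, added an offset of 16 and quantile normalized the arrays. The 14804 probes detected at P under 0.01 in each of the 3 arrays of some group were fitted together by limma (lmFit, eBayes with a trend), with groups as the only term. Comparisons were ZNF658 siRNA 1 against control siRNA 1, ZNF658 siRNA 2 against control siRNA 2, the mean and the difference of these effects, control siRNA 2 against control siRNA 1, and Dharmacon against Ambion arrays. Suppliers are those that the sample labels name. P values were adjusted over all 14804 probes by Benjamini and Hochberg's method, and a call also needed 1.2-fold. The precision depends on the number of arrays and on the spread between them, and intervals are at 95%. The fit was tried on simulated data with independent noise on each array and the same change in both siRNA groups. That setting does not cover arrays that lie closer to another group, so it says nothing about them. The rank product test that the methods name was not used here, since it resamples probes within an array.

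Gene names came from GEO's platform annotation, which gives 15540 probes a single symbol and 3 probes more than 1, while 2936 tested probes stay unnamed. All 39 tested genes matched RefSeq by gene identifier. The brightest probe stands for its gene. Values on every array are given for the catalytic subunits PSMB5, PSMB6, PSMB7 and PSMB10 and for the 3 genes with the largest change each way with either siRNA, in their mean and between the controls. PSMB4, PSMD6, PSMD12, the second probes given by array and the 3 promoters printed were chosen after their values were seen. The members and gene lists were chosen with earlier results of these data known.

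The labels do not say whether equal replicate numbers pair the arrays, and the residuals did not settle it. The numbers therefore enter as a block only in an alternative. Alternatives were median scaling, no background correction, the authors' table, other detection filters, no fold minimum, eBayes without a trend, array quality weights, all 6 controls as 1 group, 1 probe per gene, the replicate block and leaving arrays out. After the data were seen, medians without the PSMC3IP probes and the fit without replicate 3 of ZNF658 siRNA 1 and replicate 1 of control siRNA 1 were added.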

Additional observations from a re-analysis of the deposited data

How the results depend on the processing

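No proteasome probe was called with either ZNF658 siRNA or for their mean under any alternative other than array quality weights. Apart from those weights and the fits that left arrays out, at most 0.0675% of all tested probes were called in these comparisons. The absence of a call therefore says little about the proteasome itself. With those weights, which set replicate 3 of control siRNA 2 to 0.156, 1 member was called with siRNA 1 (5.68% of all tested probes), 2 with siRNA 2 (4.05%), 6 in the difference of the effects (18.4%), 5 between the controls (17%) and 3 between the suppliers (13.8%). The cause was not tested. Without replicate 3 of both siRNA 2 groups, 3 members were called in the difference (9.64%), 1 between the controls (5.53%) and 1 between the suppliers (6.04%). Leaving out 1 array at a time, the counts ran from 0 to 1 between the controls (PSMC4) and from 0 to 1 between the suppliers (PSMB4), the 1 in each without replicate 3 of control siRNA 2, and were 0 elsewhere. The nearest fit, without replicate 3 of both siRNA 2 groups, called 5.53% and 6.04% of all tested probes in these comparisons. With 1 array left out at a time, the median log2 fold change ran from −0.09 to −0.01 with siRNA 1, −0.11 to 0.01 with siRNA 2, −0.07 to −0.03 for the mean, −0.11 to −0.05 between the controls and −0.10 to −0.05 between the suppliers.

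Median scaling gave medians of 0.169 with siRNA 1, −0.193 with siRNA 2 and 0.137 between the controls, where the medians over all tested probes were 0.184, −0.114 and 0.174. Relative to all probes they were −0.02, −0.08 and −0.04. Without PSMC3IP, chosen after seeing the data, the medians were −0.05, −0.03 and −0.08. With the replicate number as a block, 0 members were called in each comparison, where 0% (siRNA 2) to 3.63% (between the suppliers) of all tested probes were. Every group holds each replicate number, so the block could not change an estimate, only its SE. The medians of −0.07 with siRNA 1 and −0.04 with siRNA 2 are therefore those of the main fit. The residuals of arrays with the same number correlated at −0.59 to 0.401, and the best correlate of an array had its number for 3 of 12. Of 336 member values, 136 kept their sign under every alternative run. No member (0) was called in any comparison without replicate 3 of ZNF658 siRNA 1 and replicate 1 of control siRNA 1, also chosen after seeing the data. That fit called 0% (siRNA 1) to 2.32% (between the suppliers) of all tested probes. Groups of 3 arrays were not examined for single outlying values.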
